A study of Drosophila melanogaster with 36 samples.

Results

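The genes described here encode the subunits of the proteasome in Drosophila melanogaster females. They were taken as every row of the count table whose FlyBase symbol begins with Prosalpha, Prosbeta, Rpn or Rpt followed by a number, which gave 48 of 17552 genes. Of these, 32 are the constitutive subunits and 16 are paralogues whose symbols carry R or T after the subunit number, called testis-type here because several of them are known from the testis. The constitutive genes lie on chromosome arms 2L (4 genes), 2R (10), 3L (5), 3R (9) and X (4).

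Females of the IV base population were kept as virgins or mated at 3 days of age to males of 6 experimentally evolved populations. Males M1, M2 and M3 came from enforced monogamy, and males P1, P2 and P3 from polygamous groups of 5 females and 5 males. Both regimes had run for 182 generations at a census size of 200, followed by 1 generation in a common garden. Females of every group were 4 days old when frozen, which for the mated ones was 24 h from mating. A library pooled 20 heads or 20 abdomens. There were 6 groups of 3 libraries: virgin, mated to M males and mated to P males, in each tissue. M and P thus name the mates, and all females came from the same base population. The male population was the unit of replication between regimes. Separate cultures are not stated for the virgin pools, so a p-value reflects how far these pools differ, and that may be technical.

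The proteasome degrades proteins that carry chains of ubiquitin. Its 20S core is a barrel of outer rings of alpha subunits and inner rings of beta subunits, and the catalytic sites sit on beta1, beta2 and beta5. The 19S regulatory particle caps the barrel: a base of Rpt ATPases unfolds substrates and threads them into the core, and a lid holds Rpn11, which removes the ubiquitin chain. Rpn10 and Rpn13 bind ubiquitin chains, and Rpn1 and Rpn2 are the large scaffolds of the base. Proteasomes are needed in all cells, and in the fly ovary they serve the protein turnover of dividing and maturing germ cells.

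Totals were 40396031 to 64761633 counts per head library and 41057456 to 56772245 per abdomen library. The tissue labels fitted their markers. The summed level of 16 head genes was 87579 ± 4267 (SD, n = 3) normalised CPM (counts scaled to a common library size) in virgin heads and 199 ± 3.17 in virgin abdomens. The summed level of 26 germline genes was 12051 ± 272 in virgin abdomens and 847 ± 20.7 in virgin heads. In 3 head libraries (virgin 1, M1 and M2) midgut protease transcripts summed to 7971 to 16287 CPM, against 13.9 to 113 in the other 6. Counts of subunits in these libraries are bulk values, in which fewer cells of a type and less RNA per cell cannot be told apart.

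The constitutive subunits took 0.681% to 0.849% of all counts in abdomens and 0.159% to 0.181% in heads. Prosalpha1, an alpha ring subunit, is an exception among them: it had 158 counts in all 18 libraries together, while the other 31 had between 64206 (Prosbeta1) and 268978 (Rpn2). Its neighbouring copy Prosalpha1R, which lies 1734 bp away on the same strand, had 0 counts. How reads shared by both copies were counted is not given in the sources used here, so the level of Prosalpha1 is uncertain, and levels per gene length below are for the other 31 subunits. Of the 32 constitutive genes, 13 share between 1 and 264 bp of exon with a gene on the opposite strand and 0 with a gene on the same strand. The strand setting of the counting is not given in the sources used here, and counts in those stretches are uncertain.

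Subunit transcripts were several times higher in abdomens than in heads of virgin females. All 31 constitutive subunits that passed the expression filter in each tissue were called higher in the abdomen (edgeR quasi-likelihood, Benjamini-Hochberg over all genes), where 44.1% of 11631 genes tested were called higher and 44.5% lower. Abdomen and head libraries did not overlap for any of these 31, where 43.4% of genes were higher and 45.4% lower without overlap. Prosalpha1, with 47 counts in virgin abdomens and 6 in virgin heads, passed the filter only through the abdomens, so its direction was fixed by the filter and supports nothing. Their summed level was 7117 ± 343 CPM in virgin abdomens and 1906 ± 139 in virgin heads (n = 3 each). The abdomen libraries lay between 6762 and 7447 and the head libraries between 1747 and 2002, so the groups were far apart. The median log2 difference was 1.93, against -0.03 for all genes tested. Size factors by relative log expression gave medians of -0.22 for all genes and 1.73 for the 32 subunits with Prosalpha1 included. The main fit had a median of 1.93 over the same 32.

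Within the complex the tissue difference was uneven. Prosalpha4, an alpha ring subunit on X:16276270-16277587 of BDGP6, had the largest difference among the constitutive subunits. It stood at 213, 192 and 223 CPM in virgin abdomens and at 40.5, 32.2 and 37.8 in virgin heads, a log2 difference of 2.58 ± 0.10 (SE; adjusted p = 1.93e-13, edgeR). Rpn13, the ubiquitin receptor at the end of the 19S particle, had the smallest. It stood at 148, 148 and 173 CPM in abdomens and at 69.1, 61.2 and 67.7 in heads, a log2 difference of 1.32 ± 0.13 (adjusted p = 6.26e-08, edgeR). No abdomen library overlapped a head library for either gene. By role, the median log2 difference was 2.01 for all beta subunits and 1.83 for the Rpt ATPases. It was 1.92 for the lid and 1.54 for the ubiquitin receptors. The alpha ring had 2.17 with Prosalpha1 included. The direction of Prosalpha1 was fixed by the filter, so this ring is not ranked among the roles. The base scaffolds had 2.00 (Rpn1) and 2.20 (Rpn2). Among the beta subunits the catalytic ones had 1.70 (Prosbeta1, beta1), 1.86 (Prosbeta2, beta2) and 1.60 (Prosbeta5, beta5), below the median of the ring.

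Levels per gene length can be set side by side within a tissue. In virgin abdomens the 31 subunits had a median of 161 CPM per kb of exon and ran from 93.5 for Rpn13 to 248 for Prosalpha2, a 2.66-fold span. In virgin heads the median was 42.6 CPM per kb and the range ran from 29.7 for Rpn1 to 83.2 for Prosbeta5, a 2.80-fold span. Prosbeta5, Prosalpha2 and Prosbeta2 stood among the 5 highest in both tissues. Neighbours in this order often differed by less than their spread: Prosalpha2 and Prosbeta4 had means of 248 ± 14.2 and 248 ± 22.7 CPM per kb (SD, n = 3) in virgin abdomens.

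Some subunits held different places in the order of the tissues. Prosalpha4 moved furthest, from place 13 of 31 in virgin abdomens to place 27 in virgin heads. Prosalpha6 of the alpha ring stood in place 3 in abdomens and 14 in heads, and Rpn13 in the last place in abdomens and place 20 in heads. The ATPase Rpt1 stood in places 18 and 8, Rpn11 in places 8 and 17, and Prosbeta4, a non-catalytic beta subunit, in places 2 and 10. These places describe the libraries and were not tested.

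**Figure D1:**
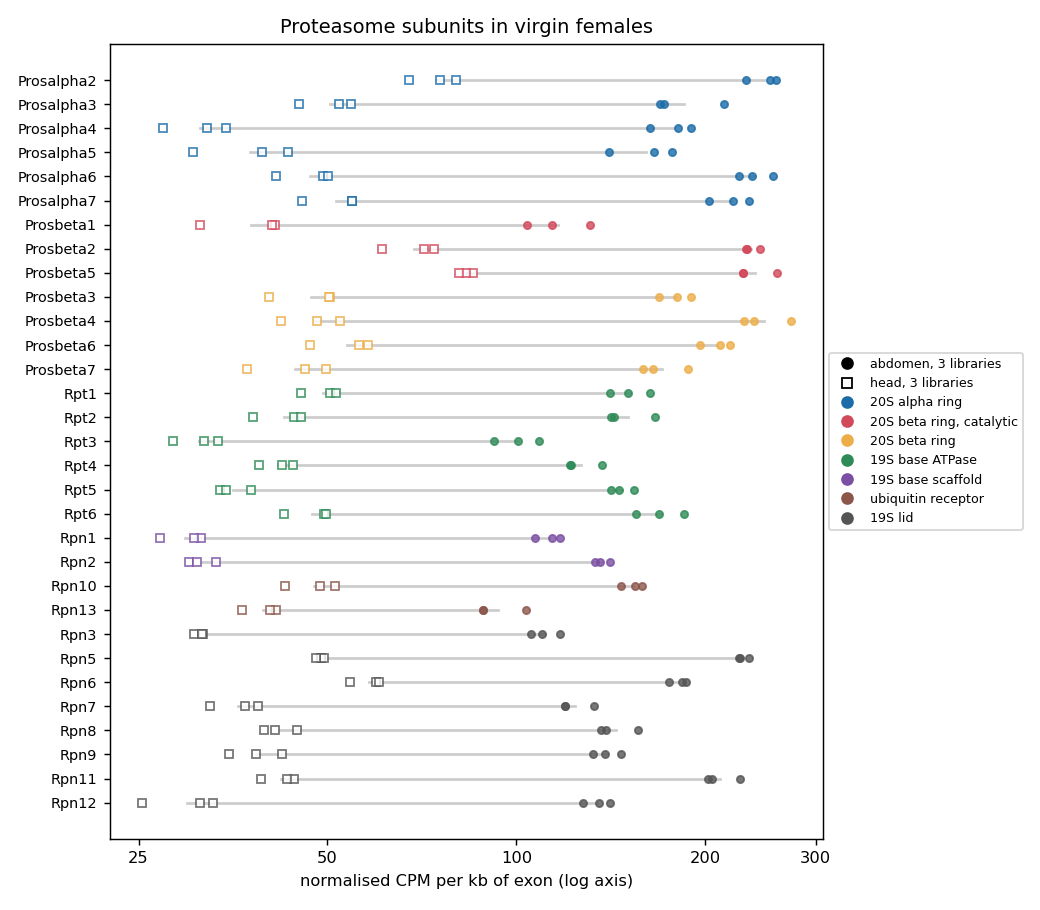
Normalised CPM per kb of exon (log axis) of 31 constitutive subunits in the 3 virgin abdomen libraries (filled circles) and the 3 virgin head libraries (open squares), with grey lines between the means and colours for the role. For every subunit the abdomen libraries lie above the head libraries, and the gap is narrowest for Rpn13 and widest for Prosalpha4.

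After mating, most subunit estimates in abdomens lay slightly below 0 with the scaling used here. Of the 32 constitutive subunits, 9 fell and 0 rose (edgeR, adjusted p under 0.05), which is 28.1%, against 25.2% of 10350 genes called lower, 29.0% called higher and 54.2% called in either direction. The share called lower is thus near that of all genes, and the share called higher is below it. The median log2 change of the subunits was -0.14, against 0.04 for all genes, and 30 of 32 estimates were below 0. The subunits share these libraries and moved together within groups (median pairwise correlation 0.81). Their estimates are thus not independent, and the count of signs is not a test. The summed level was 7117 ± 343 CPM in virgins (n = 3) and 6451 ± 382 in mated females (n = 6). The mated libraries ran from 5910 to 7041, so their highest lay above the lowest virgin library. Females mated to M males had 6489 ± 173 and those mated to P males 6414 ± 575.

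The subunits with the lowest p-values belong to the lid, the base and the beta ring. Rpn5, a structural subunit of the lid on 3R:5789493-5791569, stood at 446, 429 and 431 CPM in virgin abdomens. It stood at 357, 379 and 347 in abdomens mated to M1, M2 and M3, and at 320, 340 and 364 in those mated to P1, P2 and P3. Every mated library lay below every virgin library, and Rpn5 fell by 0.31 on the log2 scale (SE 0.07, adjusted p = 0.0038, edgeR). In heads the same gene ranged from 83.9 to 103 CPM over all 9 libraries, with a log2 change of 0.02 ± 0.06.

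Rpt5, one of the base ATPases on 3R:23752876-23754623, stood at 250, 231 and 237 CPM in virgins. It stood at 193, 196 and 209 with M1, M2 and M3, and at 182, 203 and 204 with P1, P2 and P3. The groups did not overlap, and Rpt5 fell by 0.27 on the log2 scale (SE 0.06, adjusted p = 0.0056, edgeR).

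Prosbeta4, on 2L:16731180-16732133, stood at 223, 188 and 195 CPM in virgin abdomens. It stood at 160, 165 and 155 with M1, M2 and M3, and at 146, 164 and 177 with P1, P2 and P3. All mated libraries were below all virgin ones, the closest being P3, and Prosbeta4 fell by 0.33 on the log2 scale (SE 0.08, adjusted p = 0.0057, edgeR).

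Prosalpha2, an alpha ring subunit, stood at 238, 214 and 234 CPM in virgins, at 197, 197 and 197 with M1, M2 and M3, and at 188, 210 and 186 with P1, P2 and P3. It fell by 0.22 (SE 0.06, adjusted p = 0.015, edgeR). Rpn9, a structural subunit of the lid, stood at 247, 223 and 233 CPM in virgins, at 192, 203 and 198 with M1 to M3, and at 178, 200 and 215 with P1 to P3. It fell by 0.24 (SE 0.07, adjusted p = 0.015, edgeR). For both genes the groups did not overlap, although P2 for Prosalpha2 and P3 for Rpn9 came close to the lowest virgin library. Rpn9 shares 264 bp of exon with genes on the opposite strand, the most of any constitutive subunit.

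Rpn11, the deubiquitinating enzyme of the lid, stood at 244, 248 and 275 CPM in virgins, at 218, 215 and 215 with M1 to M3, and at 211, 247 and 210 with P1 to P3. The P2 library lay among the virgins and apart from the other 5 mated libraries. Rpn11 fell by 0.22 (SE 0.07, adjusted p = 0.026, edgeR). Prosbeta2, which carries the trypsin-like site, stood at 253, 241 and 241 CPM in virgins, at 214, 223 and 218 with M1 to M3, and at 201, 223 and 218 with P1 to P3. It fell by 0.18 (SE 0.06, adjusted p = 0.028, edgeR), with no overlap between the groups.

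Prosbeta3 of the beta ring stood at 173, 154 and 165 CPM in virgins, at 143, 131 and 148 with M1 to M3, and at 134, 157 and 114.7 with P1 to P3 (log2 change -0.25 ± 0.09, adjusted p = 0.041, edgeR). The base ATPase Rpt6 completed the 9, with a range of 218 to 260 CPM in virgins and 193 to 226 in mated females (-0.21 ± 0.08, adjusted p = 0.049, edgeR). The groups overlapped for both: P2 lay within the virgin range for Prosbeta3, and P2 and M3 did for Rpt6. Over the 32 subunits, 7 had every mated library below every virgin library (Rpn5, Rpt5, Prosbeta4, Prosalpha2, Rpn9, Prosbeta2 and Rpn2), where 24.2% of all genes did, and 0 had the reverse, where 26.1% did.

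The other catalytic subunits were not called. Prosbeta1, which carries the caspase-like site, stood at 96.99, 88.5 and 112 CPM in virgins, at 104, 94.9 and 99.4 with M1 to M3, and at 105, 119 and 80.5 with P1 to P3. Its log2 change was 0.02 (95% interval -0.24 to 0.28, adjusted p = 0.90, edgeR). Prosbeta5, which carries the chymotrypsin-like site, stood at 262, 262 and 296 CPM in virgins, at 258, 242 and 253 with M1 to M3, and at 255, 293 and 242 with P1 to P3. Its log2 change was -0.09 (95% interval -0.26 to 0.09, adjusted p = 0.35, edgeR). The groups overlapped for both genes, and P2 was the highest mated library in each. By role, calls fell on 1 of 7 alpha subunits, 3 of 7 beta subunits, 2 of 6 Rpt ATPases, 0 of 2 base scaffolds, 0 of 2 ubiquitin receptors and 3 of 8 lid subunits.

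**Figure D2:**
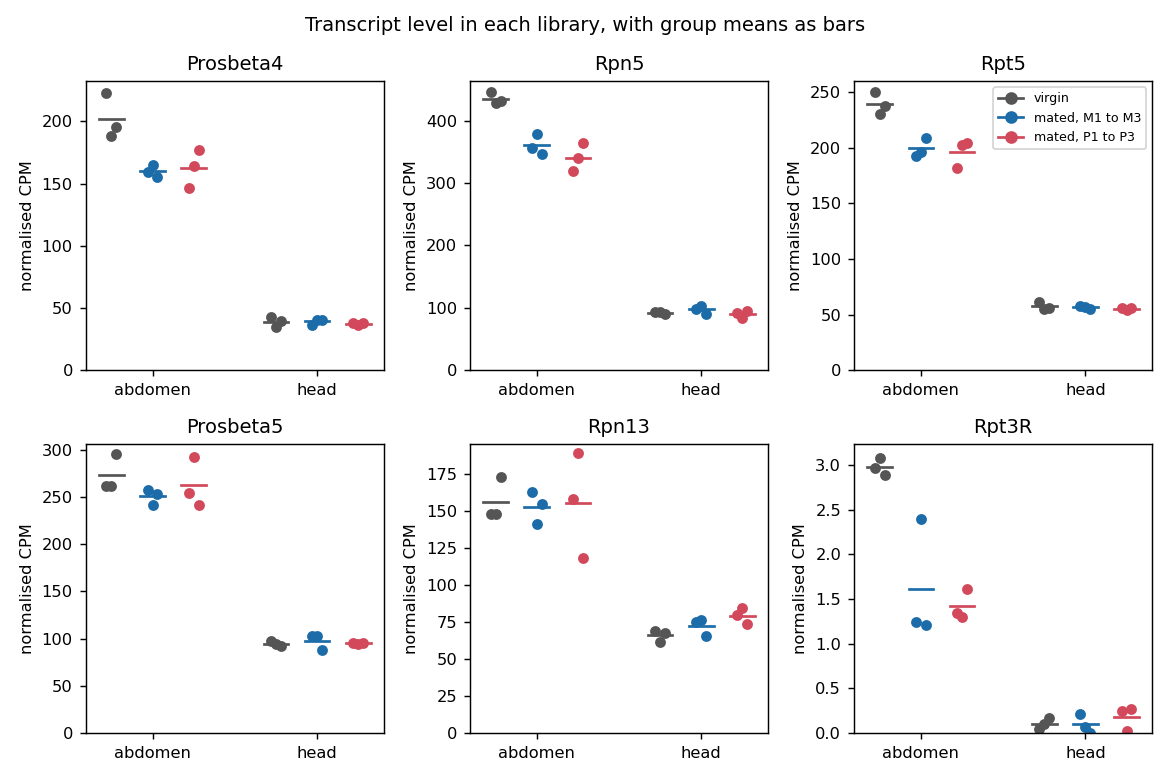
Normalised CPM of 6 genes in each of the 18 libraries, with group means as bars, for virgin females (grey) and females mated to M (blue) or P (red) males. In abdomens Prosbeta4, Rpn5, Rpt5 and Rpt3R are lower in every mated library than in every virgin library, and Prosbeta5 and Rpn13 overlap.

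The abdominal calls depended on single libraries and on the scaling. Rpn5, Rpt5 and Prosbeta4 were called in all 9 fits that left out 1 library, while Prosbeta2, Prosbeta3 and Rpt6 were called in 2 of 9. The count of 9 became 4 without virgin 1 or without virgin 3, and 5 without M1, M2, M3 or P1. When libraries were scaled on 26 germline genes, an alternative chosen after the data were seen, 0 of 32 subunits were called and their median log2 change was -0.0022, with a median of 0.17 over all genes. When they were scaled on muscle and tubule genes all 32 were called lower, with a median of -1.20 against -0.996 for all genes. The share of all genes called under these scalings is not given here, so neither count sets the subunits apart from other genes.

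Markers of other cell types moved in the same abdomens. Over all genes tested, 25.2% fell and 29.0% rose. Of 26 germline genes tested, 15 fell and 3 rose, and their summed level went from 11763 to 12303 CPM in virgins to 10383 to 11431 in mated females. Eggshell and follicle genes rose in 14 of 18, from a summed 1704 to 2243 CPM to 7163 to 18580. Muscle genes rose in 16 of 19 tested, from 1015 to 1383 CPM to 2413 to 2804, renal tubule genes in 6 of 7, from 171 to 208 CPM to 299 to 349, and midgut protease genes in 24 of 27 tested, from 1280 to 2795 CPM to 3635 to 8258. Of the germline, eggshell, muscle and tubule markers 0 were at 0 counts in a whole group of abdomens. The part of these changes in the subunit values was not tested. Of the midgut protease genes 2 of 29 were at 0 in all virgin abdomens.

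The other large complexes served as a comparison. Their genes were taken by the start of the symbol, and paralogues were not set apart as they were for the proteasome. Of the cytosolic ribosomal protein genes, 42 of 86 tested rose and 0 fell after mating in abdomens, with a median log2 change of 0.42, where 29.0% of all genes rose and 25.2% fell. Of the vacuolar proton pump genes, 6 of 20 tested (30.0%) rose and 0 fell, with a median of 0.15, so the share that rose is near that of all genes. In virgin abdomens against heads, 44.1% of all genes were higher and 44.5% lower. Of 86 ribosomal protein genes, 8.14% were higher and 19.8% lower, both below those shares. Of 21 proton pump genes, 42.9% were higher and 33.3% lower, the first of these near that of all genes. Log2 differences ran from -9.70 to 6.22 for proton pump genes and from -1.15 to 8.17 for ribosomal protein genes. With paralogues kept in, these shares are not like for like with those of the constitutive subunits. The difference between the lists was not tested.

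In heads no subunit was called after mating. The count was 0 of 31 tested by edgeR and 0 by DESeq2, where edgeR called 2.21% of 10886 genes, 0.863% higher and 1.35% lower. An unadjusted p under 0.05 was found for 1 of 31 subunits and for 1708 of 10886 genes (edgeR). The summed level was 1906 ± 139 CPM in virgin heads (n = 3) and 1970 ± 79.2 in mated heads (n = 6), and the groups overlapped. Groups that did not overlap were found for 0 of 31 subunits, where 3.78% of genes were higher and 4.82% lower without overlap. Rpn13 was the subunit with the lowest p. Rpn13 stood at 69.1, 61.2 and 67.7 CPM in virgins, at 74.7, 76.3 and 65.4 with M1 to M3, and at 80.1, 84.3 and 73.8 with P1 to P3. Its log2 change was 0.20 (95% interval 0.04 to 0.36, adjusted p = 0.22, edgeR), and M3 overlapped the virgins.

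Rpn8, a lid subunit paired with Rpn11, stood at 68.6, 60.7 and 63.3 CPM in virgin heads, at 71.8, 72.0 and 66.7 with M1 to M3, and at 72.3, 71.8 and 67.0 with P1 to P3. Its log2 change was 0.13 ± 0.06 (adjusted p = 0.32, edgeR), and M3 and P3 lay within the virgin range. The lid subunit Rpn3 stood at 57.9, 56.2 and 57.7 CPM in virgins, at 62.1, 61.8 and 57.8 with M1 to M3, and at 62.1, 65.5 and 60.1 with P1 to P3 (0.10 ± 0.05, adjusted p = 0.37, edgeR). Only M3 overlapped the virgins for Rpn3. Rpn2 stood at 113.5, 103 and 106 CPM in virgins, at 114.9, 116 and 108 with M1 to M3, and at 121, 116 and 114.8 with P1 to P3 (0.10 ± 0.05, adjusted p = 0.38, edgeR), again with M3 among the virgins. Over the 31 subunits the estimates ran from -0.06 to 0.20, and the widest 95% bounds were -0.24 (Prosalpha5) and 0.36 (Rpn13). Without virgin 1, M1 and M2, the heads that held midgut transcripts, 0 subunits were called as well.

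**Figure D3:**
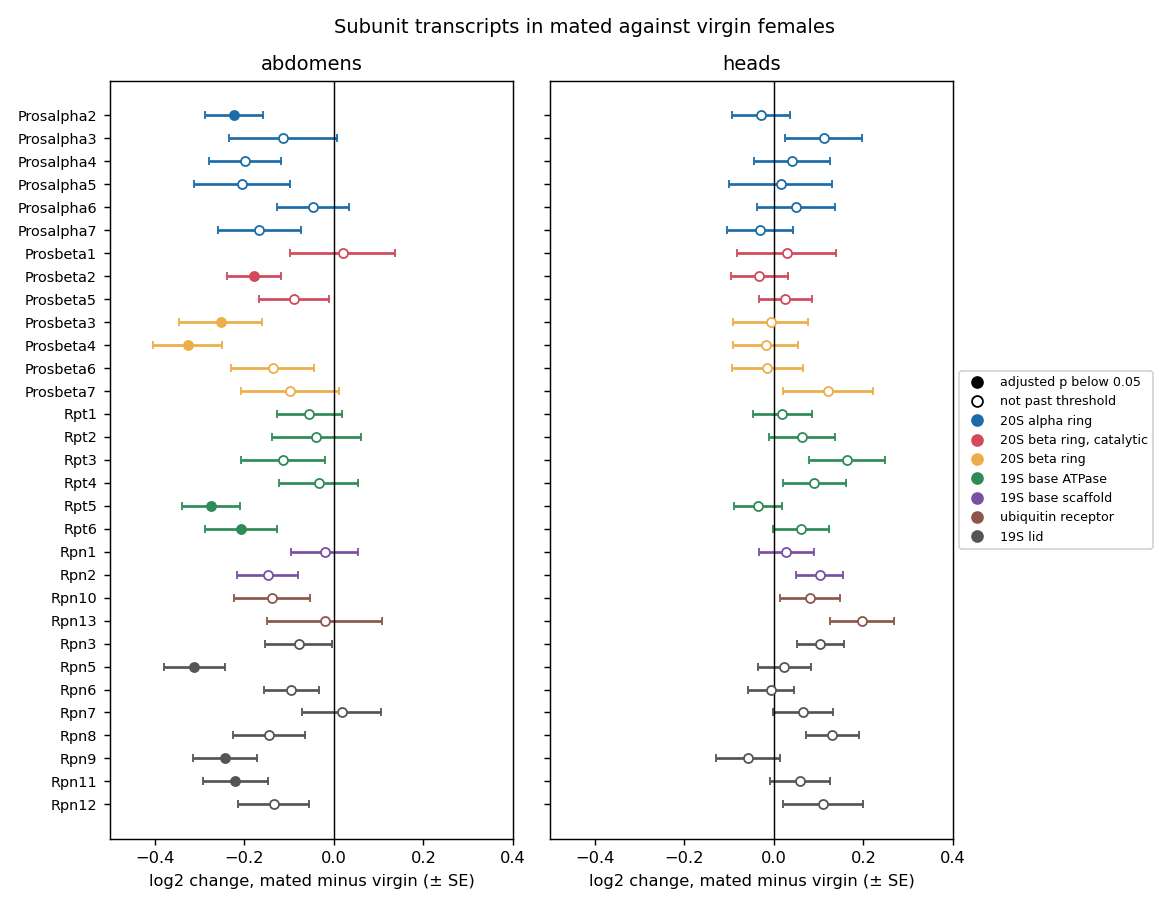
Log2 change of 31 constitutive subunits between mated (n = 6) and virgin (n = 3) females in abdomens (left) and heads (right), with SE as bars, colours for the role and filled points for adjusted p below 0.05. In abdomens 29 of 31 estimates lie below 0 and 9 are filled, while in heads 22 of 31 lie above 0 and 0 are filled.

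The mating change differed between the tissues for part of the complex. In a model of all 18 libraries the change in abdomens was lower than that in heads for 14 of 32 subunits and higher for 0. This is 43.8%, where 18.6% of 11631 genes were called lower, 18.6% higher and 37.2% in either direction, and the median was -0.28 against 0.03 for all genes. Rpn5 had the largest difference (-0.40 ± 0.09, adjusted p = 0.0026, edgeR), followed by Prosbeta4 (-0.38 ± 0.10, adjusted p = 0.0092, edgeR). Rpn11 (-0.34 ± 0.09), Rpn8 (-0.34 ± 0.10), Rpn2 (-0.32 ± 0.08) and Rpt5 (-0.31 ± 0.07) were called as well. By role the calls were 6 of 8 lid subunits, 2 of 6 ATPases, 1 of 2 scaffolds, 1 of 2 ubiquitin receptors, 2 of 7 alpha subunits and 2 of 7 beta subunits. These differences come from 1 scaling of all 18 libraries, so they need not equal the difference of the changes given for each tissue. The fits within a tissue gave subunit medians of -0.14 in abdomens and 0.04 in heads. Levels on the scaling of all 18 libraries went against the sign of the within-tissue fits for some subunits. Ribosomal protein genes, paralogues included, had 3 calls higher and 0 lower of 86 (3.49% and 0.0%). Proton pump genes, paralogues included, had 5 higher and 0 lower of 21 (23.8% and 0.0%). Of all genes 18.6% were called in each direction.

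The count of 14 became 8 with size factors by relative log expression and 5 without the 3 heads that held midgut transcripts. It was 7 without abdomen virgin 3, 8 without head virgin 2, and 9 without abdomen M1, P1 or virgin 1 or head M2. Rpn5, Rpt5, Prosbeta4 and Rpn2 were called in all 18 fits that left out 1 library.

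The regime of the mates made no difference that could be called. In abdomens 0 of 32 subunits differed between P and M mates, and in heads 0 of 31, where edgeR called 0.0% of genes in either tissue. Unadjusted p-values under 0.05 were found for 0 subunits in either tissue, and for 185 of 10350 genes in abdomens and 864 of 10886 in heads, while DESeq2 called 14 and 17 genes and 0 subunits. Midgut protease transcripts summed to 7971 and 16287 CPM in heads M1 and M2, and to between 14.7 and 113 in M3 and P1 to P3. Regime and midgut content are thus partly confounded in heads. Of the 31 subunits tested in heads, Prosalpha4 had every P library above every M library, where 8.18% of all genes did, and Prosbeta2 had every P library below, where 7.01% did. These counts depended on the scale of the levels: with 1 scaling over all 18 libraries, 10 of 31 were higher without overlap, where 15.2% of all genes were, and 0 were lower, where 3.44% were.

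In abdomens the lowest p among the 31 well-measured subunits was that of Rpn5, with a mean of 361 ± 16.3 CPM with M mates and 341 ± 21.9 with P mates. Its log2 difference was -0.08 (95% interval -0.26 to 0.09, adjusted p = 1.00, edgeR). Prosbeta5 had 0.07 (-0.13 to 0.27), Rpn2 had -0.05 (-0.22 to 0.13) and Prosalpha1 had -0.30 (-0.91 to 0.32), the last on very few counts. P and M libraries overlapped for all 32 subunits in abdomens, where 2.91% of genes were higher and 2.61% lower without overlap.

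In heads the lowest p was that of Rpt4, a base ATPase, at 63.3, 64.4 and 58.0 CPM with M1 to M3 and 69.7, 73.7 and 62.4 with P1 to P3. Its log2 difference was 0.15 (95% interval -0.03 to 0.33, adjusted p = 0.61, edgeR), and P3 lay among the M libraries. Prosbeta7, a non-catalytic beta subunit, stood at 59.3, 56.8 and 49.0 CPM with M1 to M3 and at 62.9, 67.0 and 57.3 with P1 to P3, a difference of 0.18 (-0.07 to 0.44). Rpn13 had 0.14 (-0.04 to 0.32) and Rpn5 had -0.11 (-0.26 to 0.04), and their groups overlapped too. The widest bounds among the 31 subunits were -0.32 (Prosbeta7) and 0.35 (Rpn13) in abdomens, and -0.26 (Rpn5) and 0.45 (Prosbeta1) in heads. The intervals thus leave room for differences of up to 27.3% in abdomens and 36.6% in heads.

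Within a group the subunits moved together from library to library. After the group means were removed, 1 component held 84.7% of the variance of 31 subunits over the 9 abdomen libraries and 78.0% over the 9 head libraries. The median correlation between pairs of subunits was 0.81 and 0.75. No such values are given here for other genes, so a trait particular to the subunits is not shown. In abdomens the libraries furthest from their group mean were P2 (mean log2 deviation 0.15) and P3 (-0.14). The values for the subunits describe 9 libraries per tissue, with 6 degrees of freedom left after the group means. They depend on how levels were scaled in heads: with 1 scaling over all 18 libraries, the first component held 68.9% there and the median correlation was 0.55.

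The library with P2 mates was high and that with P3 mates low in abdomens. P2 lay above the mean of its group for 30 of 31 subunits, with a mean deviation of 0.15 on the log2 scale, and P3 was the lowest of the 9 libraries for 25. Rpn13 stood at 189 CPM in P2 and 118 in P3, Prosbeta1 at 119 and 80.5, and Prosalpha3 at 195 and 133. Not all subunits followed: Rpn5 stood at 340 in P2 and 364 in P3, Prosbeta4 at 164 and 177, and Rpn9 at 200 and 215. Summed ribosomal protein transcripts were 93956 CPM in P2 and 64480 in P3, the highest and lowest of the mated abdomens. Summed eggshell and follicle transcripts were 18580 and 7163 CPM, also the highest and lowest of these. Midgut protease transcripts summed to 6779 in P2 and 3635 in P3, the latter the lowest, and germline transcripts to 10383, the lowest, and 11039. Their part in the spread was not tested.

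In heads, virgin 2 was the lowest of the 9 libraries for 25 of 31 subunits, with a mean deviation of -0.14, and its summed ribosomal protein level of 62775 CPM was also the lowest. P2 was the highest head library for 14. The subunits that followed the shared component strongly in abdomens tended to do so in heads (Pearson r = 0.76, Spearman rho = 0.80 over 31 subunits). Over the same subunits the weight on the component in abdomens and the mating change correlated with r = 0.62 and rho = 0.53, so the subunits that followed it least, Rpn5, Prosbeta4 and Rpn9, were among those that fell most. These are descriptions across genes that share libraries.

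**Figure D4:**
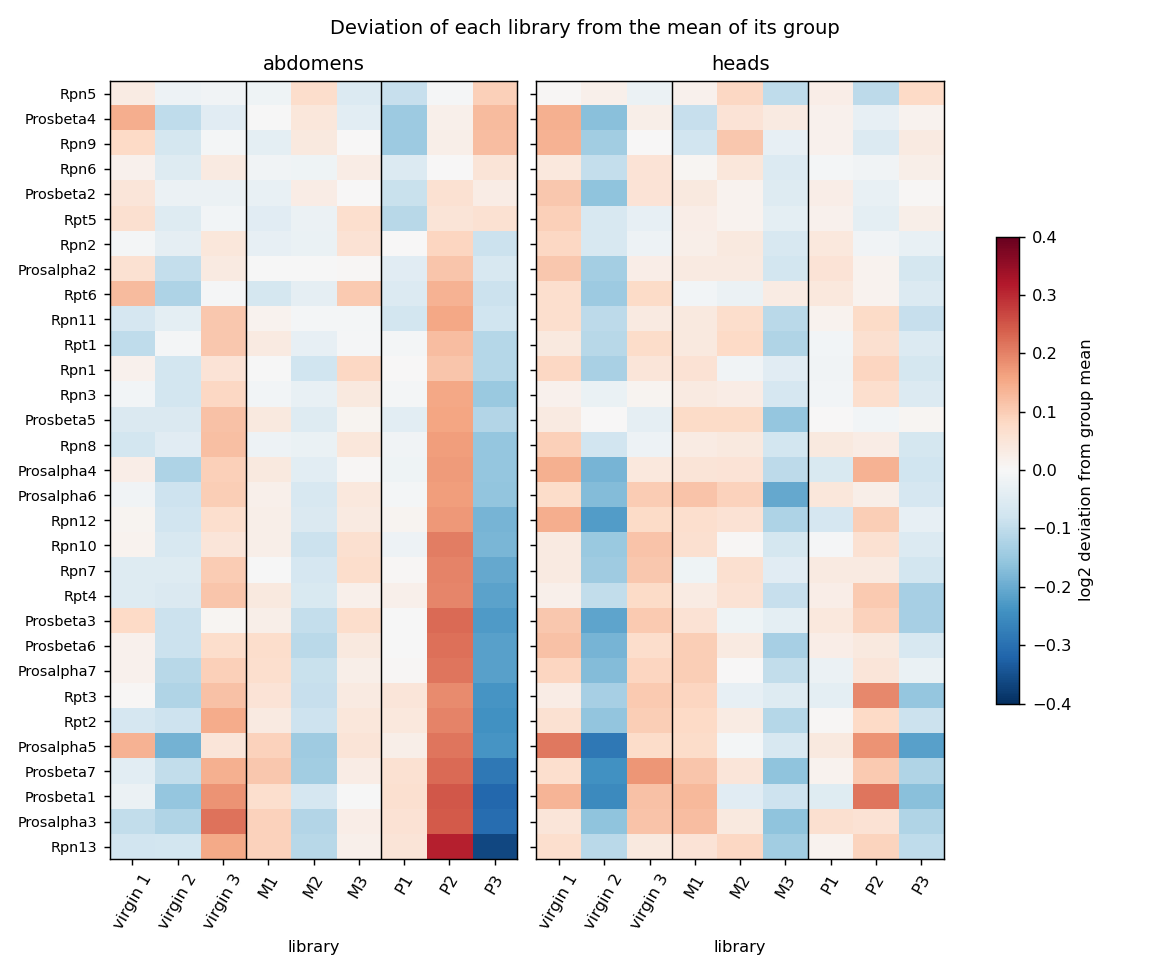
Log2 deviation of each of 31 subunits (rows) from the mean of its group in each library (columns) in abdomens and heads, with vertical lines between virgin, M and P groups; rows are ordered by their weight on the shared component in abdomens. P2 abdomens are red and P3 abdomens blue for most rows, with the reverse or little deviation in the top rows such as Rpn5 and Prosbeta4, and virgin 2 is blue for most rows in heads.

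The testis-type paralogues were almost silent in these female tissues. Together the 16 had 1409 counts in 18 libraries, against 4200404 for the constitutive subunits, and 3 of them (Prosalpha1R, Prosbeta4R2 and Prosbeta5R2) had 0 counts in every library. A count of 0 over a tissue allows up to 0.00652 CPM in abdomens and 0.00686 in heads, taken as 3 counts and covering counting error alone. These floors are CPM of raw counts, without the scaling factors of the printed levels. Only Rpt3R, a copy of the base ATPase Rpt3 on 3R:9754735-9756510, passed 1 CPM in any library, and it had 1038 of the 1192 paralogue counts in abdomens.

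Rpt3R stood at 2.97, 3.09 and 2.89 CPM in virgin abdomens, at 1.25, 2.40 and 1.21 with M1, M2 and M3, and at 1.34, 1.30 and 1.61 with P1, P2 and P3. All mated abdomens were below all virgin ones, and M2 stood apart from the other mated libraries. Rpt3R fell by 0.96 on the log2 scale (SE 0.22, 95% interval -1.45 to -0.47, adjusted p = 0.0049, edgeR), and it was called in all 9 fits that left out 1 library. In heads it ranged from 0 to 0.264 CPM. The difference in mating change between the tissues was -1.29 ± 0.79 and was not called (adjusted p = 0.21, edgeR). With 50 counts over 9 head libraries, this test cannot tell whether the change of Rpt3R differs between tissues.

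Rpt3R was 1.34% of the summed counts of Rpt3 and Rpt3R in abdomens. Rpt3 itself, on X:11125101-11126785, went from 156 ± 12.9 CPM in virgin abdomens to 144 ± 14.3 in mated ones and was not called (-0.11 ± 0.09, adjusted p = 0.32, edgeR). Testis marker genes summed to 3.03 to 4.71 CPM in abdomens and 9.42 to 13.4 in heads, with 14 of 24 at 0 in all mated abdomens. Male accessory gland genes summed to at most 0.329 CPM in abdomens. Rpt3R shares 20 bp of exon with Alg12 on the opposite strand.

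The paralogues that could be tested between tissues, 3 of 16, each passed the expression filter only through the tissue where they are high, so their levels are given without a test. Over 9 libraries per tissue Rpt3R had 1038 counts in abdomens and 50 in heads, and Rpt6R, a copy of the ATPase Rpt6, had 85 and 6. Prosalpha4T2 had 86 counts in heads and 5 in abdomens. Prosalpha3T had 35 counts in heads and 2 in abdomens and did not pass the filter.

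Genes that assemble or regulate the proteasome were lower in mated abdomens in part. Of 9 such genes, 5 fell (55.6%, against 25.2% of all genes) and 0 rose (29.0% of all genes), with a median log2 change of -0.23. Usp14, a deubiquitinase of the 19S particle, went from 245 ± 12.3 to 197 ± 13.9 CPM (-0.32 ± 0.08, adjusted p = 0.0058, edgeR). Uch-L5, a deubiquitinase that binds Rpn13, had -0.23 ± 0.07, Sem1, a small lid protein, had -0.24 ± 0.08, and CG12096 had -0.30 ± 0.07. The fifth was ntc (-0.27 ± 0.10), an F-box protein that acts with PI31 in the fly, named after its values were seen. In heads 0 of 9 were called, where 2.21% of all genes were. In virgins all 9 were higher in abdomens than in heads, where 44.1% of all genes were, with Uch-L5 at 126 ± 1.43 CPM against 13.3 ± 0.80, a log2 difference of 3.32 ± 0.08.

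The transcription factor branch had 1 call in mated abdomens. cnc encodes the fly factor of the Nrf family, whose relative in mammals drives subunit genes when proteasomes fail, and Pngl and rngo are the fly relatives of enzymes that process that factor. Of 5 genes, Pngl fell (-0.37 ± 0.09, adjusted p = 0.0052, edgeR) and 0 rose. The share that fell, 1 of 5, is near the 25.2% of all genes that fell. cnc, named after its values were seen, stood at 338 ± 10.5 CPM in virgin abdomens and 341 ± 31.5 in mated ones (0.01 ± 0.09). In virgins rngo was 1.85 ± 0.06 and Pngl 1.14 ± 0.09 log2 units higher in abdomens than in heads. Keap1, which in mammals holds the factor's relatives in check, had a log2 difference of -0.84 ± 0.08.

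Of the ubiquitin genes and the activating enzyme, 2 of 5 fell and 1 rose in mated abdomens, where 54.2% of all genes were called in either direction, so the share is near that of all genes. Ubi-p5E, a polyubiquitin gene, fell by 0.34 (SE 0.09) and Uba1, the E1 enzyme that activates ubiquitin, fell by 0.25 (SE 0.07). RpS27A, which encodes ubiquitin fused to a ribosomal protein, rose by 0.39 (SE 0.10), and RpL40, the other such fusion, had 0.27 ± 0.11 and was not called. Uba1 was 2.06 ± 0.06 log2 units higher in virgin abdomens than in heads. Of the 4 genes found on the list of shuttles and cofactors that bring ubiquitinated proteins to the proteasome, Rad23 fell by 0.37 (SE 0.11) and Npl4 by 0.29 (SE 0.06). Ubqn (-0.16 ± 0.07) and p47 (-0.01 ± 0.15) were not called. This is 2 of 4 called lower, where 25.2% of all genes were. In heads 0 of 5 and 0 of 4 were called, where 2.21% of all genes were.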

How the data were processed

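Gene counts were deposited by the authors in 1 table with 36 columns, 2 sequencing runs for each of 18 libraries made from total RNA with a stranded kit. The submitters' processing notes name Trimmomatic 0.33, TopHat2 2.1.0, HTSeq 0.6.1 and the build BDGP6. The annotation release, the strand setting and the handling of reads that fit several genes have no statement in the labels or notes used here. Runs of a library differed by a chi-square of 1.81 to 3.32 per degree of freedom and were summed. Coordinates and exon lengths come from Ensembl release 115 of BDGP6.

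Changes were tested with edgeR 4.0.16 (R 4.3.3): TMM factors, the default expression filter, robust quasi-likelihood fits with a prior count of 2, and Benjamini-Hochberg adjustment over all genes tested, called at 0.05. The 3 groups of a tissue were fitted together. Tissue contrasts and the difference in mating change used 1 model of 18 libraries. The script was tested on simulated counts. DESeq2 1.42.0 was an alternative, with others in scaling, filter, runs, blocks and libraries. Tables were made with pandas 2.3.3 and SciPy 1.17.1 under Python 3.11.15.

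Printed levels are CPM, from counts as deposited, with TMM factors within a tissue and 1 constant per tissue. This level scale was chosen after the data were seen, because levels scaled over all 18 libraries went against the sign of the fits for 2 subunits. The fits do not use it. Every constitutive member is covered by the naming rule. Values in each library are given for up to 8 subunits with the smallest p in mated abdomens, up to 4 in the other contrasts, the catalytic subunits and paralogues above 1 CPM, and up to 4 genes are named from each pathway list. The members and lists were chosen with earlier results of these data known. Replicate numbers did not pair the libraries within a tissue: correlations of deviations ran from -0.29 to 0.04 within abdomens and -0.47 to 0.64 within heads. For libraries of the same label they ran from -0.32 to 0.20 between tissues. Mated libraries of the same label share a mate population, which the main model leaves out. Sequences are not shown. Intervals and floors cover the spread between libraries or counting error only, as stated.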

Additional observations from a re-analysis of the deposited data

Results flagged for a closer look

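In 65 groups of 6 mated libraries tested, 5 had a library far from the others. Chance flags about 1 in 20 independent groups. The groups here share libraries in which the subunits moved together, so the count cannot be set against that rate. In abdomens the flagged libraries were P2 for Rpn11 (247 CPM), P2 for Prosbeta5 (293 CPM) and M2 for Rpt3R (2.40 CPM). In heads they were P2 for Rpt3 (65.1 CPM) and M3 for Prosalpha6 (43.5 CPM).

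The mating change differed between abdomens and heads by an interaction test in edgeR's quasi-likelihood model for 14 of 32 subunits, each lower in abdomens, where 18.6% of all genes were called lower. The count depended on how the libraries of both tissues were scaled to each other, as given below. On the log2 scale the lid subunits had -0.40 (Rpn5), -0.34 (Rpn11), -0.34 (Rpn8), -0.31 (Rpn12), -0.25 (Rpn3) and -0.25 (Rpn9). The base had -0.31 (Rpt5), -0.33 (Rpt6) and -0.32 (Rpn2), and the ubiquitin receptor Rpn10 had -0.28. The core had -0.26 (Prosalpha2), -0.30 (Prosalpha4), -0.38 (Prosbeta4) and -0.21 (Prosbeta2).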

How the results depend on the processing

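The count of 9 subunits lower in mated abdomens was 5 with a replicate block, 32 when scaled on muscle and tubule genes and 0 when scaled on germline genes (chosen after the data were seen), and ran from 4 to 12 when 1 library was left out. It was 11 with size factors by relative log expression, 12 with DESeq2, 8 without the filter and 7 with run 1 alone. The share of all genes called under each alternative is not given here. Counts of calls under alternatives thus do not set the subunits apart from other genes. The count of 14 subunits whose mating change was lower in abdomens than in heads was 8 with relative log expression, 8 without the filter, 31 when scaled on muscle and tubule genes and 5 without 3 heads (virgin 1, M1 and M2), and ran from 7 to 16 when 1 library was left out; the block gave 17. Within a tissue the block rests on replicate numbers that did not pair the libraries. In the model of both tissues it rests on library labels, which for mated libraries name the mate population that heads and abdomens share. The main model leaves this pairing out. The other 4 comparisons kept counts of 32, 0, 0 and 0 under every alternative run. The 32 includes Prosalpha1, whose direction was fixed by the filter and supports nothing. Prosbeta1 in mated abdomens turned to -0.0153 with relative log expression, -0.028 with DESeq2 and -1.05 on muscle and tubule genes, and ran from -0.0587 to 0.112 with 1 library left out. Prosbeta5 turned to 0.0434 on germline genes, and its P minus M difference in abdomens ran from -0.0191 to 0.126 with 1 library left out. The muscle and tubule scaling moved the median of all genes from 0.04 to -0.996 and the germline scaling moved it to 0.17, so those turns carry the shift of all genes. The cause of the others was not tested. Of the other values for named genes under alternatives, 510 kept direction and call, 45 lost the call and 1 gained it. With levels scaled over all 18 libraries, also chosen after the data were seen, 10 subunits did not overlap in mated abdomens (27.1% of all genes) instead of 7, 2 were higher without overlap in mated heads (3.92%) instead of 0, and 10 were higher with P than M mates in heads (15.2%) instead of 1, with 0 lower instead of 1.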
